A study of Homo sapiens with 4 samples.

Results

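The fibroblast growth factor (FGF) ligands and receptors were examined in MDA-MB-231, a breast cancer cell line without the oestrogen and progesterone receptors, and in LM2-4175, a line isolated from it that metastasizes to the lung. The set held 10 genes out of the 57815 in the deposited table, and they were taken by symbol alone: the ligand genes FGF1, FGF2 and FGF5, the intracellular factor FGF11, the receptor genes FGFR1, FGFR2, FGFR3 and FGFR4, the receptor-like FGFRL1, and FGFBP1, which encodes a carrier of FGF ligands. Both cell lines were untreated and were grown in DMEM with foetal bovine serum, and total RNA of each was sequenced in 2 libraries, 4 in all. The authors combined the libraries of a cell line in 1 FPKM (the fragments that map to a gene, per kilobase of its transcript and relative to all mapped fragments), with a lower and an upper bound, so no value per library, SD or test between replicates can be given. No difference between the cell lines below has a replicate check.

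Most FGF ligands are secreted, are held by heparan sulphate chains on the cell surface and bring receptor tyrosine kinases together in pairs. The activated receptor phosphorylates the adaptor FRS2, which feeds the RAS-ERK cascade, and ERK in turn induces its own inhibitors of the SPRY and DUSP families. Amplified or mutated FGF receptors occur in several carcinomas, among them breast cancer.

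LM2-4175 had more FGF5 and less FGFRL1 and FGFR3 than MDA-MB-231, while the estimate of FGFR1, the main receptor of both lines, was nearly the same. A gene was called higher or lower where the lines differed by 1.5-fold or more in FPKM + 1 and no overlap was left between the authors' bounds, among genes with a mean of at least 0.5 FPKM and a status of OK in both lines. By this rule 9.27% of the 13911 genes tested were called (4.67% higher and 4.61% lower in LM2-4175). Of the 10 FGF genes, 7 passed the filter, 1 of them was called higher and 2 were called lower. FGFR3 and FGF11 passed it through the cell line in which they were higher, so the share called among the genes that passed is not a measure of how often FGF genes differ. FGF2, FGFR2 and FGFBP1 stayed under the filter. The median log2 fold change was -0.01 over the 7 genes and -0.04 over all genes tested. The plot of FPKM with bounds shows the values of all 10 genes.

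**Figure D1:**
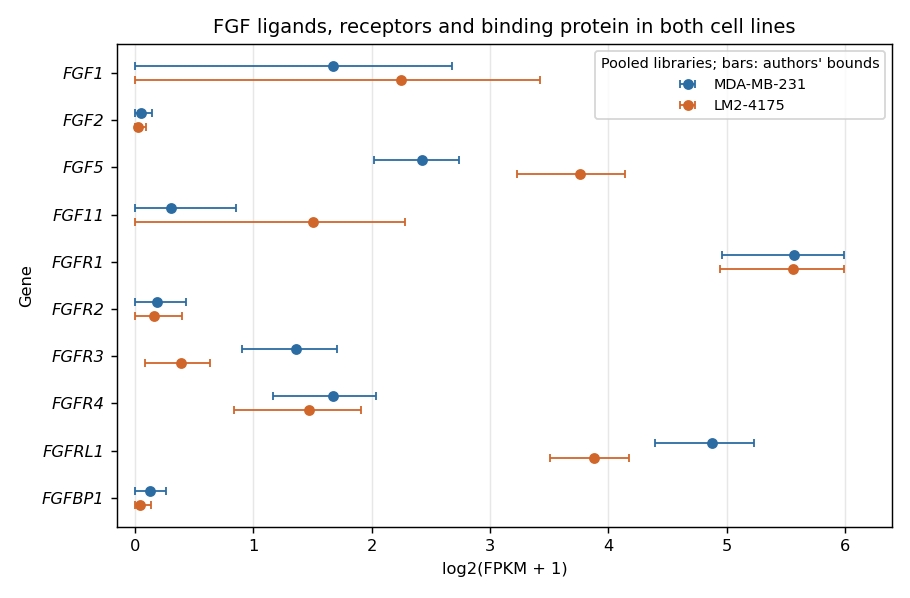
FPKM of the 10 FGF genes in MDA-MB-231 (blue) and LM2-4175 (orange), drawn as log2(FPKM + 1); points are the pooled value of 2 libraries and bars the authors' lower and upper bounds. The bars of the cell lines are apart for FGF5, FGFR3 and FGFRL1 and overlap for the other 7 genes.

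The labelled cell type was checked first. ESR1 and PGR, which encode the oestrogen and progesterone receptors, had at most 0.0331 FPKM in either line. Other genes of the luminal list were not all absent. ERBB2, which encodes the HER2 receptor and is not specific to luminal cells, had 35.0 FPKM in MDA-MB-231 and 22.8 FPKM in LM2-4175. The paper uses both lines as a model of triple negative breast cancer, and HER2 protein was not measured here. GATA3 had 3.10 and 2.42 FPKM. CDH1 had 0.851 and 0.366 FPKM and FOXA1 0.0871 and 0.440 FPKM. The mesenchymal genes VIM, CD44, ZEB1, SNAI2 and AXL were all expressed (VIM at 1355 and 1768 FPKM), whereas CDH2 was not above 0.221 FPKM. Among markers of other cells, PTPRC of leukocytes, VWF and CDH5 of endothelium, DCN and PDGFRA of fibroblasts and SFTPC, SFTPB and SCGB1A1 of lung epithelium were all at or below 0.158 FPKM in both lines. The epithelial gene EPCAM (12.3 and 4.93 FPKM) and the fibroblast gene LUM (1.34 and 0.178 FPKM) were called lower, and their part in the values below was not tested. The leukocyte marker CD14 had 1.17 and 1.75 FPKM, and NKX2-1, of lung epithelium and thyroid, had 0.565 and 0.0855 FPKM. In bulk RNA, a higher level in every cell and a larger share of cells that express the gene cannot be told apart.

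Among the ligands, FGF5 was the most abundant and the only one of the secreted FGF genes tested that was called. FGF5 encodes a secreted ligand known for ending the growth phase of the hair follicle. In MDA-MB-231 it was estimated at 4.37 FPKM (the authors' bounds ran from 3.07 to 5.66), and in LM2-4175 at 12.5 FPKM (from 8.35 to 16.7). FGF5 rose by a ratio of 2.87 (log2 fold change 1.33), and the bounds allow ratios from 1.47 to 5.44. FGF5 thereby moved from the 59.2 percentile to the 73.5 percentile of the genes with an FPKM above 0. C4orf22 (CFAP299), on the same strand, overlaps 2.3% of the exon bases of FGF5 and had 0.491 and 1.10 FPKM.

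Positions are those of GENCODE 44 on GRCh37. FGF1 (ENSG00000113578.13, chromosome 5, 141971743 to 142077635, minus strand), a ligand that binds all of the signalling FGF receptors, had 2.19 FPKM in MDA-MB-231 and 3.76 FPKM in LM2-4175. The lower bound was 0 in both lines and the upper bounds were 5.42 and 9.70 FPKM, so the log2 fold change of 0.57 was not called. The difference of 1.56 FPKM lay within -5.20 to 8.32 FPKM, when the distance to the upper bound was taken as 2 standard errors. In the authors' table the locus of FGF1 also holds 5 other genes, of which SPRY4 had the highest FPKM (22.4 and 52.5). SPRY4 itself lies outside FGF1, at 141689992 to 141706020, and exons of other genes overlap 0.0% of the exon bases of FGF1.

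FGF2 (ENSG00000138685.8, chromosome 4, 123747837 to 123819391, plus strand), the basic fibroblast growth factor, which leaves cells without a signal peptide, was close to 0 in both cell lines. Its FPKM was 0.0340 in MDA-MB-231 (upper bound 0.106) and 0.0168 in LM2-4175 (upper bound 0.0689). NUDT6, the gene on the opposite strand that overlaps the end of FGF2, had 8.92 and 10.5 FPKM and was not called. Exons of NUDT6 and of AC021205.1 overlap 13% of the exon bases of FGF2. Whether strand was used in counting is not given in the sources used here, so reads in the overlap may come from either gene.

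Of all 15 genes for paracrine ligands, which act near the cells that release them, only FGF1 and FGF5 reached the filter. The other 13 had less than 0.5 FPKM in both lines, and 4 of them were listed at 0 in both. The highest of these 13 was FGF17 with 0.0702 FPKM in MDA-MB-231 and FGF20 with 0.132 FPKM in LM2-4175. FGF5 and FGF1 together made up 95.8% of the summed FPKM of the paracrine ligands in MDA-MB-231 and 97.6% in LM2-4175. This sum was 6.85 FPKM in MDA-MB-231 and 16.7 FPKM in LM2-4175, and FGF5 alone made up 63.7% and 75.0% of it. FGF19, FGF21 and FGF23, the endocrine ligands that act at a distance, were all below 0.5 FPKM in both lines, as were their klotho co-receptors KL and KLB.

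The intracellular FGF homologous factors are not secreted and bind sodium channels rather than act as classical ligands. FGF11 (ENSG00000161958.6) lies on the plus strand of chromosome 17, from 7341592 to 7348256. It was estimated at 0.237 FPKM in MDA-MB-231 (bounds 0 to 0.809) and at 1.84 FPKM in LM2-4175 (bounds 0 to 3.86). LM2-4175 thus had 7.78 times the FPKM, with a log2 fold change of 1.20, but the bounds overlap and the gene was not called. Exons of other genes overlap 82.1% of the exon bases of FGF11, and its locus in the table holds 8 other genes, of which CHRNB1 had the highest FPKM (28.2 and 40.1). FGF13, of the same group and on chromosome X, rose to 4.83 FPKM (bounded by 3.16 and 6.51) from 0.175 FPKM (bounded by 0 and 0.483), and its log2 fold change was 2.31. It passed the filter through LM2-4175 alone and was called higher, with 1.5% of its exon bases overlapped by other genes. FGF12 and FGF14 stayed under 0.5 FPKM in both lines. The plot of changes beside all genes tested places FGF13 and FGF5 in the right tail of the distribution and FGFRL1 and FGFR3 in the left.

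**Figure D2:**
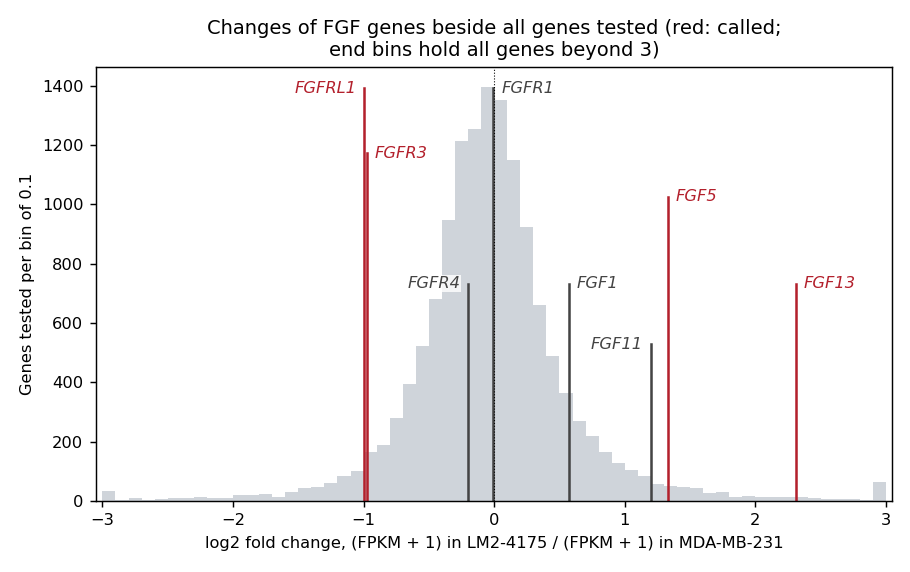
Histogram of the log2 fold change of (FPKM + 1), LM2-4175 over MDA-MB-231, for the 13911 genes tested in bins of 0.1; the end bins hold all genes beyond 3 in size, and vertical lines mark the 7 FGF genes that passed the filter and FGF13, in red where called, at heights that carry no value. FGFR1 lies at -0.01, FGFRL1 at -0.99 and FGF5 at 1.33.

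FGFR1 was the most abundant receptor gene and was not called. The gene (ENSG00000077782.15) lies on the minus strand of chromosome 8, from 38257733 to 38326352. It was estimated at 46.4 FPKM in MDA-MB-231 (bounded by 30.1 and 62.8) and at 46.2 FPKM in LM2-4175 (bounded by 29.8 and 62.7). The difference of -0.184 FPKM lay within -23.4 to 23.0 FPKM, and the bounds allow ratios from 0.474 to 2.09, so a change of 2-fold in either direction lies within them. The log2 fold change of -0.01 turned positive after scaling to TPM (0.075) and after centring on the median of all genes (0.039). FGFR1 made up 92.3% of the summed FPKM of the 4 kinase receptors in MDA-MB-231 and 95.5% in LM2-4175. This sum was 50.3 and 48.4 FPKM.

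The other kinase receptors were far lower than FGFR1 in both lines. FGFR4 (ENSG00000160867.10, chromosome 5, 176513906 to 176525145, plus strand) is best known as a receptor of the liver. Its level of 2.18 FPKM in MDA-MB-231 (bounded by 1.25 and 3.12) and of 1.77 FPKM in LM2-4175 (bounded by 0.792 and 2.75) gave a log2 fold change of -0.20, and it was not called. FGFR3, a receptor that restrains bone growth and is often mutated in bladder cancer, fell to 0.307 FPKM (bounded by 0.0593 and 0.555) in LM2-4175 from 1.57 FPKM (bounded by 0.874 and 2.27) in MDA-MB-231. This was 0.195 of the level in MDA-MB-231, with a log2 fold change of -0.98, and the bounds allow ratios from 0.0261 to 0.634. FGFR3 went from 3.13% to 0.634% of the summed FPKM of the kinase receptors. FGFR2 (ENSG00000066468.16) lies on the minus strand of chromosome 10, from 123237846 to 123357972, and had a lower bound of 0 in both lines, with 0.140 FPKM estimated for MDA-MB-231 and 0.120 FPKM for LM2-4175. The table gives values per gene, and the epithelial and mesenchymal splice forms of the receptors were not separated. Among regulators of this exon choice, ESRP1 stayed under the filter, and ESRP2 had 2.38 FPKM in MDA-MB-231 and 0.427 FPKM in LM2-4175 and was not called. PTBP1, the highest of this group, had 270.8 and 226.2 FPKM.

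FGFRL1 encodes a receptor that binds FGF ligands and heparin but lacks the tyrosine kinase domain. MDA-MB-231 had 28.3 FPKM of it (bounded by 20.0 and 36.6) and LM2-4175 had 13.7 FPKM (bounded by 10.4 and 17.0). FGFRL1 was called lower, by a log2 fold change of -0.99 and at 0.485 of its level in MDA-MB-231, and the bounds allow ratios from 0.284 to 0.851. No exon of another gene overlaps FGFRL1, FGFR3 or FGFR4. For every unit of FGFR1, MDA-MB-231 had 0.610 FPKM of FGFRL1 and LM2-4175 had 0.297. The bounds allow 0.319 to 1.22 for the former and 0.166 to 0.572 for the latter, and these ranges overlap. With a threshold of 2-fold in FPKM + 1 in place of 1.5, neither FGFRL1 nor FGFR3 was called, while FGF5 was. Without a pseudocount, the ratios of both genes were beyond 2-fold. With a filter at a mean of 1 FPKM, FGFR3 was not tested.

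In both lines the order of the 10 levels began with FGFR1, FGFRL1, FGF5 and FGF1 and ended with FGFR2, FGFBP1 and FGF2. In MDA-MB-231 the bounds of FGFR1 and FGFRL1 overlap and those of FGFRL1 and FGF5 are apart. In LM2-4175 it was the reverse, with FGFR1 apart from FGFRL1, and FGFRL1 at 13.7 FPKM overlapping FGF5 at 12.5 FPKM. From FGF5 down to FGFR3 in MDA-MB-231, and from FGFRL1 down to FGFR4 in LM2-4175, each neighbour overlapped the next. FGFBP1 (ENSG00000137440.3, chromosome 4, 15937200 to 15940363, minus strand), whose product releases FGF ligands from the matrix, had 0.0939 FPKM in MDA-MB-231 and 0.0294 FPKM in LM2-4175, both with a lower bound of 0. Its relative FGFBP3 had 0.618 and 1.15 FPKM and was not called.

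Over the values of the cell lines, which are 2 points, the genes nearest to FGF5 by distance on log2(FPKM + 1) were APBB3, TMEM255B and GPR153 (distances of 0.054, 0.104 and 0.108). Nearest to FGFRL1 were AGK, NRG1 and CYB561 (0.054, 0.057 and 0.059).

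The called genes FGF5, FGFRL1 and FGFR3 all lie on chromosome 4, as do FGF2 and FGFBP1, so that 5 of the 10 genes are on this chromosome. FGF5 (ENSG00000138675.12) spans 81187793 to 81257834, FGFRL1 (ENSG00000127418.10) spans 1003724 to 1020686 and FGFR3 (ENSG00000068078.13) spans 1795020 to 1810599 in GENCODE 44 on GRCh37, all on the plus strand. The starts of FGFRL1 and FGFR3 are 0.79 Mb apart. For each of these genes, which were the ones called, 250 bases upstream of a start site are shown. The window ends at the base before the GENCODE start for FGFRL1 and FGFR3, and for FGF5 it precedes the RefSeq start, which lies upstream of the GENCODE start. They are given for GRCh37, plus strand, 5′ to 3′, with each match of the GC box GGGCGG on either strand in capitals. The windows are chr4:81187492-81187741 for FGF5, chr4:1003474-1003723 for FGFRL1 and chr4:1794770-1795019 for FGFR3. Those of FGF5 and FGFR3 are RefSeq promoter windows of GRCh38.p14, each matched to 1 place on chromosome 4 of GRCh37. The RefSeq window of FGFRL1 lies within exons of other transcripts and was replaced. The window shown for FGFRL1 was read from GRCh37 before its GENCODE start. None of them overlaps an annotated gene.
FGF5: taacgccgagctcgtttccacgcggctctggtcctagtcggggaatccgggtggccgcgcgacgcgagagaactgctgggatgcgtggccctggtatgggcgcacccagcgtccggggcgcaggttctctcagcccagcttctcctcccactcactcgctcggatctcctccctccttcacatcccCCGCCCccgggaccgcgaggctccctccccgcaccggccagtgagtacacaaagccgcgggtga
FGFRL1: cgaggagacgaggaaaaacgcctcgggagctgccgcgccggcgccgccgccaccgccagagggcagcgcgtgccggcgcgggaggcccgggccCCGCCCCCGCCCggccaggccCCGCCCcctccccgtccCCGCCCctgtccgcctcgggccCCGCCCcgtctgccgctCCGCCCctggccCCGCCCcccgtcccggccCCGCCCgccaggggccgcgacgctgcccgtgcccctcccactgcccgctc
FGFR3: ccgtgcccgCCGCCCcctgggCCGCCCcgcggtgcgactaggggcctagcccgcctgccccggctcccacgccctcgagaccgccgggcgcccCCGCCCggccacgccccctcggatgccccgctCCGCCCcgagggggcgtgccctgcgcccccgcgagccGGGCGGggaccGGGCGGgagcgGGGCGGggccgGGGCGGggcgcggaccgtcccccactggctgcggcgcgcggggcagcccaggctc

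The windows of FGFRL1 and FGFR3 were more alike in base composition than either was like that of FGF5. Their GC content was 85.2% and 86.8%, against 68.8% for FGF5 and a median of 58.0% over 35093 RefSeq windows of the same length. The GC box was matched 8 times in each of FGFRL1 and FGFR3 and 1 time in FGF5. At least 1 match was found in 42.6% of all RefSeq windows and at least 8 in 0.584%. The window of FGFRL1 was chosen in another way than these, so its GC content and matches are not strictly comparable with theirs. None of the 3 windows held the AP-1 letters TGANTCA on either strand, which 6.6% of all windows hold. The ETS letters CCGGAAG, found in 8.5% of all windows, were absent from them as well. So were the E-box CACGTG, at 6.3% of all windows, and the TATA box TATAAA, at 10.7%. RefSeq windows were matched for 9 of the 10 FGF genes.

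Genes around FGFRL1 and FGFR3 were mostly lower in LM2-4175 too. Of 37 other protein-coding genes tested that start within 2 Mb of FGFRL1, 30 had a lower FPKM + 1 and 7 a higher one, with a median log2 fold change of -0.32. Of all 13911 genes tested, 7585 had a lower level. Only SPON2 (2.12 and 0.355 FPKM, log2 fold change -1.20) and FGFR3 itself were called lower among the 37, and none was called higher. The share called lower was 4.61% of all genes tested. SPON2 was the 1 neighbour with a larger decrease than FGFRL1. Around FGFR3, 33 of 40 such genes, FGFRL1 among them, had a lower level, with a median of -0.34. The median was 0.07 over the 465 protein-coding genes tested on chromosome 4 and -0.05 over all 12082. These windows overlap each other and share many genes, and the part that the region has in the decrease of FGFRL1 and FGFR3 was not tested. Counts of neighbours by direction, here and below, depend on the scaling and were made with the authors' FPKM only. Scaling to TPM moved the median log2 fold change of all genes tested from -0.044 to 0.031.

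Of the 6 genes tested within 2 Mb of FGF5, 5 had a higher level in LM2-4175, with a median of 0.56, and FGF5 had a higher log2 fold change than each of them. None of the 6 was called, against 9.27% of all genes tested. Around FGFR1, 14 of 17 genes were lower with a median of -0.24, against -0.01 for FGFR1. Of these, 2 were called lower, against 4.61% of all genes tested. Lower genes were also the larger part around FGFR4 (26 of 38, median -0.12) and FGF1 (16 of 25, median -0.15). Around FGF11 they were 39 of 72, with a median of -0.01, which is near the 7585 of 13911 genes tested that were lower. Both neighbours tested within 2 Mb of FGF13 had a higher level, and LDOC1 was called higher (8.72 and 26.5 FPKM). The plot of genes around FGFRL1 and FGF5 shows each neighbour by its distance.

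**Figure D3:**
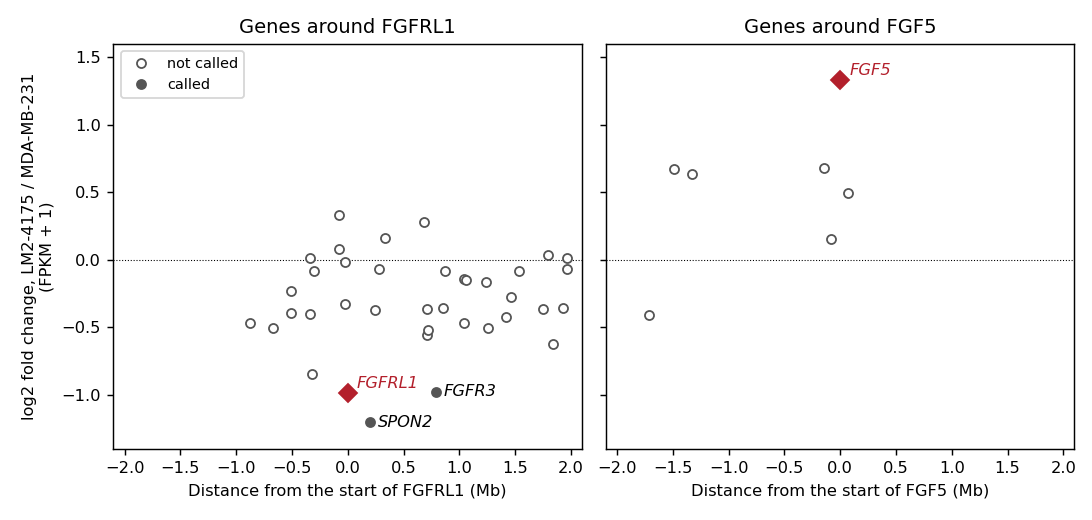
Log2 fold change of (FPKM + 1), LM2-4175 over MDA-MB-231, of protein-coding genes tested within 2 Mb of the start of FGFRL1 (left, 37 genes) and FGF5 (right, 6 genes), by the distance of their start in Mb along the plus strand; filled circles were called and diamonds are FGFRL1 and FGF5. Most points on the left lie below 0, and FGFRL1, FGFR3 and SPON2 lie lowest.

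The 11 lists of pathway genes held 110 genes besides the set of 10, among them FGF13 and the other ligand genes named above. Of these, 74 entries were tested and 8 were called, 4 higher and 4 lower, which is near the 9.27% called of all genes tested. Their median log2 fold change was 0.04. FGF13, DUSP4, DUSP5 and SPRY4 were called higher, and GPC1, HS6ST1, HS3ST3B1 and FOS lower. The plot of the lists shows every gene tested.

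Heparan sulphate, which holds the ligand on its receptor, had 3 genes called lower and none higher in its lists of core proteins and of synthesis, against 4.61% called lower of all genes tested. GPC1, a glypican that carries the chains on the cell surface, fell to 9.02 FPKM (bounded by 5.61 and 12.4) from 27.4 FPKM (bounded by 18.6 and 36.3), with a log2 fold change of -1.50. It was the 1 gene called of 9 core protein genes tested, whose median was 0.01. SDC4, the highest of them, had 96.6 FPKM in MDA-MB-231 and 144.4 FPKM in LM2-4175, with bounds that overlap. The bounds of SDC2, at 44.7 and 22.7 FPKM, overlap as well. HS6ST1, which adds sulphate at the 6-O position, fell to 3.99 FPKM (bounded by 2.88 and 5.11) from 11.9 FPKM (bounded by 9.04 and 14.9). HS3ST3B1, a 3-O-sulphotransferase, fell to 1.51 FPKM (bounded by 0.875 and 2.14) from 4.14 FPKM (bounded by 2.25 and 6.03). These were the 2 called of 12 genes of synthesis and sulphation tested, of which 10 had a lower level and the median was -0.16. HS3ST3B1 was not called after scaling to TPM. EXT1, a polymerase of the chain and the highest of the list, had 168.0 and 145.8 FPKM, and it was not called.

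None of the 22 adaptor and effector genes tested was called, against 9.27% of all genes tested. Their log2 fold changes ran from -0.45 to 0.57 with a median of 0.03. With the fold of 1.5 alone, 22.1% of all genes tested passed. FRS2, the adaptor of the FGF receptors, had 8.60 FPKM in MDA-MB-231 and 10.3 FPKM in LM2-4175. MAP2K2, the highest of those tested, had 112.8 and 129.4 FPKM. In the list of ligand release and binding, none of 7 genes tested was called, against the same 9.27% of all genes. The list had a median log2 fold change of 0.18.

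Among the feedback inhibitors, 3 of 11 genes tested were called higher and none lower, with a median of 0.36, against 4.67% called higher of all genes tested. DUSP5, a nuclear phosphatase of ERK, rose to 83.5 FPKM (bounded by 64.3 and 102.7) from 18.9 FPKM (bounded by 14.3 and 23.5), with a log2 fold change of 2.08. SPRY4, a Sprouty inhibitor of receptor signalling, rose to 52.5 FPKM (bounded by 38.4 and 66.6) from 22.4 FPKM (bounded by 15.9 and 29.0), with a log2 fold change of 1.19. DUSP4, another nuclear phosphatase, rose to 85.8 FPKM (bounded by 66.2 and 105.3) from 46.3 FPKM (bounded by 35.5 and 57.1). Its log2 fold change was 0.87, and it was not called at a threshold of 2-fold. DUSP6, the cytoplasmic phosphatase that is a usual readout of FGF signalling and the highest of the list, had 84.1 FPKM in MDA-MB-231 and 98.8 FPKM in LM2-4175 and was not called. These inhibitors are induced by many receptors besides those for FGF.

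Of 9 target genes of FGF and ERK tested, 1 was called, which is near the 9.27% called of all genes tested. FOS, an immediate-early transcription factor, fell to 2.99 FPKM (bounded by 1.84 and 4.14) from 17.6 FPKM (bounded by 12.6 and 22.7), with a log2 fold change of -2.23. ETV4 and ETV5, ETS factors induced by FGF, had 40.2 and 23.5 FPKM in MDA-MB-231 and 36.2 and 32.7 FPKM in LM2-4175, and their log2 fold changes of -0.15 and 0.46 were not called. FOSL1, the highest of the list, had 322.8 and 378.3 FPKM. The median of the list was 0.33.

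**Figure D4:**
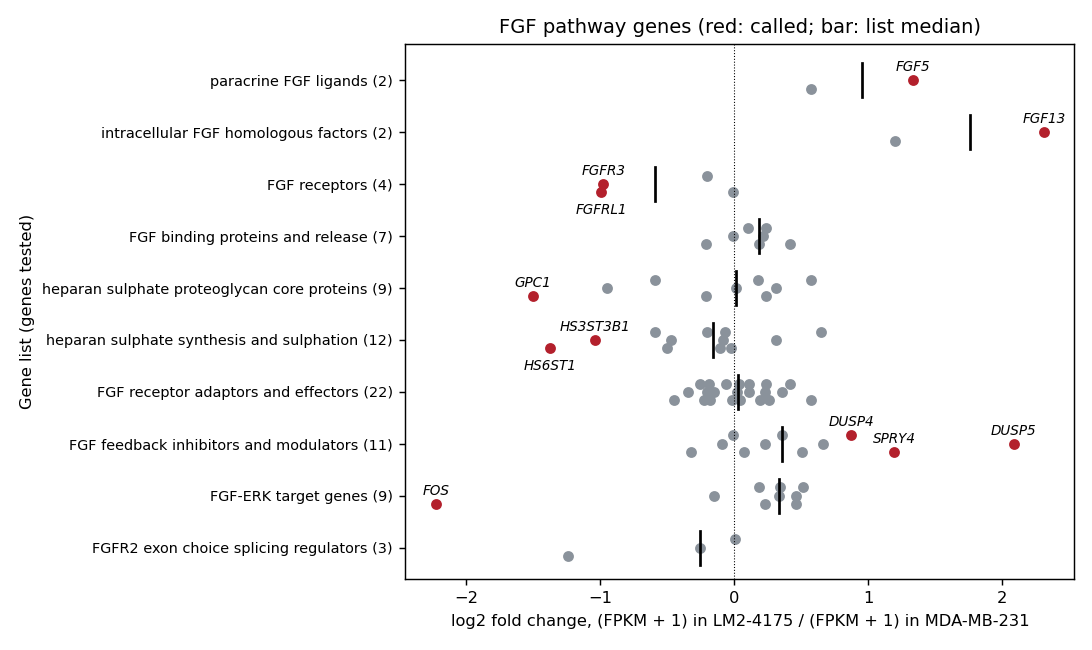
Log2 fold change of (FPKM + 1), LM2-4175 over MDA-MB-231, of the FGF pathway genes tested, 1 row per list with the number of genes tested; red points were called and are named, and the bar is the list median. The adaptors and effectors lie between -0.45 and 0.57 with no call, while DUSP5 and FOS lie at 2.08 and -2.23.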

How the data were processed

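Total RNA libraries of MDA-MB-231 and LM2-4175 (2 each) were prepared with a TruSeq kit and sequenced as paired reads. The authors aligned reads to hg19 with TopHat and deposited FPKM of GENCODE genes, from Cufflinks and, per the labels, Cuffdiff, each beside its bounds and a status word, with the libraries of a cell line combined. The table gives no depth, so precision is that of the bounds. Whether these cover the spread between libraries, the library scaling and the use of strand are not given in the sources used here. Lower bounds above 0 lie as far from the FPKM as the upper bound. Genes at 0 are called listed at 0, since the table also gives 0 for EEF1A1, a gene of all cells, where the status was not OK.

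The log2 fold change is that of FPKM + 1, LM2-4175 relative to MDA-MB-231, which understates the change of low genes. It was computed for all 57815 genes with Python 3.11.15, NumPy 2.4.6 and pandas 2.3.3. A ratio is of FPKM without a pseudocount unless stated. The ratios that bounds allow divide the lower bound of one value by the upper bound of the other. The call rule compares pooled libraries, not replicates. A run on simulated data drew its values from the authors' bounds, so it cannot tell how the rule fares with spread between libraries beyond them. The FGF genes and the pathway lists were chosen with earlier results of these data known. Named are the FGF genes of the set, the called genes and the highest gene tested of each list, the genes nearest to FGF5 and FGFRL1, which had the largest increase and decrease of the set in log2(FPKM + 1) (FGF11 and FGFR3 had ratios of FPKM farther from 1), and others chosen after their values were seen. Positions and overlaps are from GENCODE 44 on GRCh37, matched by Ensembl ID, whereas the FPKM used the authors' GENCODE release. The marker PECAM1 was not matched by symbol. In the lists, 1 symbol has 2 rows. The highest gene of a list is not reported here in every case.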

Additional observations from a re-analysis of the deposited data

How the results depend on the processing

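Another 10 settings were tried. With a threshold of 2-fold in FPKM + 1, 1 FGF gene (FGF5) and 853 of all genes were called, and FGFRL1, FGFR3 and DUSP4 were not. With the fold of 1.5 alone, 3074 genes were called, among them FGF11 and 14 genes of the pathway lists. A difference past the unadjusted limit from the standard errors gave 2318 genes. The near-even split of calls depended on the scaling. It was 649 higher and 641 lower by the main rule, 784 and 574 after scaling to TPM, and 687 and 578 after centring. With a mean of at least 1 FPKM, FGFR3 was not tested. HS3ST3B1 was not called after scaling to TPM. The log2 fold change of FGFR1, which was never called, was 0.075 after scaling to TPM and 0.039 after centring on the median of all genes, and those of FGF2 and FGFR2 were 0.020 and 0.019 after centring. In 170 other comparisons, named genes kept their direction and call, with pseudocounts of 0.1 and 0 and without the filter among them. Many of these outcomes were fixed beforehand. Of the settings, only scaling to TPM and centring can change a direction, and dropping the fold, the bounds or the filter can only add calls. No paired analysis was possible because the table holds 1 combined value per cell line, and for the same reason no library could be left out. FGF1 and FGF11 have upper bounds 109.7% to 241.6% above their FPKM, against a median of 38.6% and 38.1% in the genes tested, which limits what can be said of them.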
